A study of Ovis aries with 15 samples.

Results

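A set of 10 genes of sphingolipid and ceramide synthesis were followed through the sheep mammary gland, from late pregnancy into lactation. They were chosen by symbol, as SPTLC1, SPTLC2, CERS2, CERS5, CERS6, DEGS1, SGMS1, SGMS2, UGCG and SMPD1. All 10 were found among the 24691 features of the deposited table, each as 1 row.

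Sphingolipids are built from serine and a fatty acyl-CoA. Serine palmitoyltransferase makes the first long chain base, ceramide synthases attach a second fatty acid to it, and a desaturase turns the resulting dihydroceramide into ceramide. Ceramide is then converted to sphingomyelin or to glucosylceramide, and sphingomyelinases release it again. In the mammary gland, sphingomyelin and glycosylated sphingolipids are part of the membrane that surrounds the milk fat globule, which derives largely from the apical plasma membrane of the secretory cell.

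Needle biopsies of mammary parenchyma were taken from 2-year-old Romney ewes in their first pregnancy, at about day 135 of gestation (late pregnancy) and again at about day 15 post partum (lactation). RNA of randomly chosen ewes was pooled, giving 9 late pregnancy and 6 lactation libraries. A library thus stands for a pool and not for 1 ewe. The ewes of a pool are not named, so pools of the states may share ewes that cannot be matched. Unless stated, the tests between states treat libraries as independent. Late pregnancy pools held 3 ewes. For lactation pools the labels give 2 ewes and the paper 3. The ewes also fall into 3 groups by the early gestation feeding of their own dams, ad libitum (HM), maintenance (MM) or sub-maintenance (LM), with 3 late pregnancy and 2 lactation pools each. The dams of all 3 groups were at maintenance in mid to late gestation, and the ewes themselves were managed alike on pasture.

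Usable reads numbered 6471237 to 16898986 per late pregnancy library and 9014506 to 24001031 per lactation library. Together, 7 milk protein genes took 13.7% to 23.4% of these reads before birth and 71.3% to 75.8% in lactation, which leaves other genes fewer reads there. Levels below are therefore CPM per kilobase of exon after TMM, edgeR's trimmed mean scaling of libraries, and a log2 change is lactation over late pregnancy on TMM-scaled reads. The libraries also differed in cell markers. All 6 luminal epithelial markers were tested and 4 were higher in lactation, with a summed 1417 to 1736 CPM in late pregnancy and 2290 to 2551 CPM in lactation. All 4 T cell markers were lower (29.3 to 44.2 against 9.49 to 14.4 CPM), as were the 3 endothelial markers found of 5 (140 to 192 against 85.8 to 124 CPM) and 3 of the 4 fibroblast markers found of 6 (353 to 627 against 225 to 372 CPM). Of the 4 myoepithelial markers found of 5, 2 were higher and 1 lower (522 to 588 against 480 to 708 CPM). The adipocyte list had all 5 markers found but only 3 tested, and none was called (221 to 427 against 301 to 392 CPM). Of 5 macrophage markers, 3 were lower and 1 higher (104 to 136 against 62.2 to 92.1 CPM), and the 1 B and plasma cell marker tested, of 3 found, was lower (1.94 to 3.57 CPM for the list before birth, 0.609 to 2.86 after). No marker found was at 3 or fewer reads in every library, and the part of these shifts in the results below was not tested. In such bulk tissue, fewer cells of a type and less RNA per cell cannot be told apart.

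Between the states, 5 of the 10 genes rose and 3 fell under TMM scaling, whereas scaling by library size alone put all 9 tested genes lower in lactation. SPTLC2, DEGS1 and SMPD1 were 1.96-fold to 2.56-fold higher in lactation, and CERS2 and UGCG rose by less. CERS5 and SGMS1 fell by 1.67-fold and 1.53-fold, and SPTLC1 fell slightly. SGMS2 did not pass the test, and CERS6 had too few exon reads to be tested. The test was edgeR's quasi-likelihood F-test with Benjamini-Hochberg adjustment over 13345 genes, called at an adjusted p under 0.05. Over all genes tested it called 33.1% higher and 35.2% lower, so that a call by itself does not set the 10 genes apart. The median log2 change was 0.28 over the 9 tested genes and -0.03 over all tested genes. The states did not overlap in any library for SPTLC2, CERS2, DEGS1 and SMPD1, which were higher in lactation, or for SPTLC1, CERS5 and SGMS1, which were lower. Over all tested genes, 20.2% lay wholly higher in lactation and 20.0% wholly lower. The summed level of the 10 genes was 214 ± 5.17 (SD, n = 9) in late pregnancy and 284 ± 9.72 (SD, n = 6) in lactation.

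**Figure D1:**
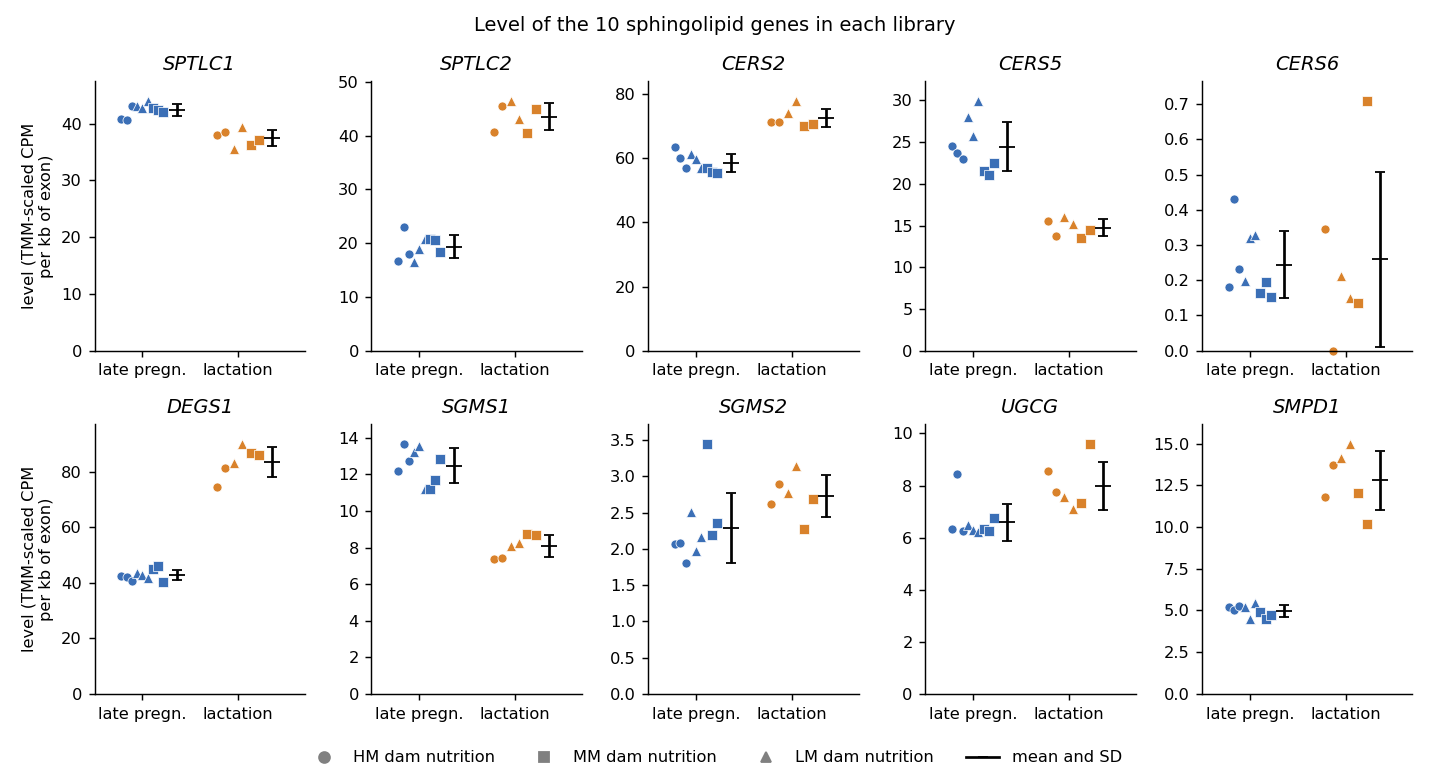
Level of each of the 10 genes (TMM-scaled CPM per kilobase of exon, linear axis from 0) in the 9 late pregnancy libraries (blue) and the 6 lactation libraries (orange). Marker shape gives the dam nutrition group, and the bar gives the mean and SD of a state. SPTLC2, DEGS1 and SMPD1 lie well apart between states, CERS5 and SGMS1 lie lower in lactation, and CERS6, SGMS2 and UGCG overlap; under library size alone every tested gene would lie lower in lactation.

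The scaling of libraries set the sign of the rises. With library size alone the median of all tested genes was -1.94, and 352 genes were called higher and 12705 lower, against 4419 and 4703 with TMM. SPTLC2 was then at -0.74, CERS2 at -1.60, DEGS1 at -0.94, UGCG at -1.63 and SMPD1 at -0.55. These scalings shift all genes by nearly the same amount, so values relative to the median of all genes stay the same by construction. So taken, SPTLC2 stood at 1.20, DEGS1 at 1.00 and SMPD1 at 1.39 under both. Upper quartile scaling moved the median to -0.18, with 3420 genes higher and 5990 lower, and left UGCG at 0.13 (adjusted p = 0.13, edgeR). On the deposited quantile-normalized RPKM, tested with limma, CERS2 stood at 0.03 (adjusted p = 0.49), SGMS2 at 0.25 (adjusted p = 0.019) and SPTLC1 at -0.42 (adjusted p = 6.86e-08). Quantile normalization does not shift all genes alike. Relative to its median of all genes, SPTLC2 stood at 0.95, DEGS1 at 0.73 and SMPD1 at 1.16.

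**Figure D2:**
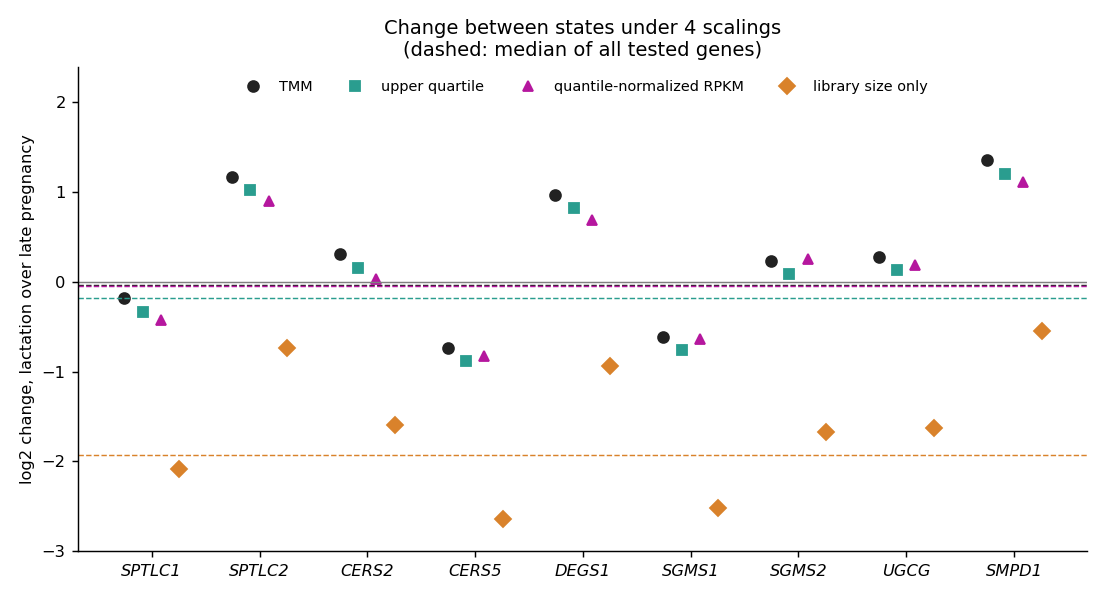
Log2 change between states (lactation over late pregnancy) of the 9 tested genes under 4 scalings of the libraries, with dashed lines at the median of all tested genes under each. Under library size alone the median falls to -1.94 and every gene falls below 0, whereas SPTLC2, DEGS1 and SMPD1 lie above 0 under the other 3.

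The first step, serine palmitoyltransferase, showed opposite changes of its subunits. SPTLC1 encodes the shared subunit that every form of the enzyme contains. It lies on chromosome 2 from 26930399 to 26996828, with 15 exons. These and the following positions are as deposited, on the sheep build that the submitters' notes name Oar_v3.1, while the paper's methods name a later version. Its level ran from 40.6 over a median of 42.8 to 44.0 in late pregnancy and from 35.5 over 37.5 to 39.4 in lactation. All lactation libraries thus lay below all late pregnancy libraries, but by a narrow margin. The log2 change was -0.18 ± 0.042 (SE, adjusted p = 7.38e-04, edgeR). SPTLC1 was also the steadiest of the 10 genes in late pregnancy, with a coefficient of variation of 2.60%.

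SPTLC2, the catalytic partner of SPTLC1, lies on chromosome 7 from 85641992 to 85736909, with 12 exons. Its level was 16.6 to 23.0 (median 18.9) in late pregnancy and 40.5 to 46.4 (median 44.0) in lactation. The lowest lactation library stood 1.76-fold above the highest late pregnancy library. The log2 change was 1.17 ± 0.068 (SE, adjusted p = 7.48e-12, edgeR), a 2.26-fold rise. A second feature, LOC101115626, lies inside the SPTLC2 locus, and held at most 2 reads in any library.

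With the opposite changes, the order of the subunits turned around on the scale of reads per kilobase of exon. The ratio of SPTLC2 to SPTLC1 was taken from the RPKM of 1 library at a time, so the scaling of libraries does not enter it. It was 0.384 to 0.566 (median 0.442) in late pregnancy and 1.07 to 1.31 (median 1.15) in lactation. By RPKM, SPTLC1 was thus the higher of the pair in 9 of 9 late pregnancy libraries, and SPTLC2 in 6 of 6 lactation libraries. Which gene is higher depends on the annotated exon lengths, which do not enter the change of the ratio between states. Before division by exon length, SPTLC2 averaged 89.5 CPM and SPTLC1 99.4 CPM in lactation. The ratio rose 2.56-fold (exact two-sided permutation test over the 5005 ways to assign the state labels, p = 0.0002, the smallest these give; adjusted p = 2.40e-04 over the 6 ratios that had a value in every library).

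Ceramide synthases differ in the length of the fatty acid they attach. CERS2, which favours very long chains, lies on chromosome 1 from 99828280 to 99832321, with 10 exons in 4042 bases. It was the highest of the 10 genes in late pregnancy, at a level of 55.5 to 63.6 (median 57.1), and stood at 70.1 to 77.9 (median 71.3) in lactation. No library of one state reached into the range of the other. Its log2 change of 0.31 ± 0.046 (SE, adjusted p = 5.78e-06, edgeR) was not kept on quantile-normalized RPKM.

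CERS5, which favours palmitoyl-CoA, moved the other way. It lies on chromosome 3 from 135993094 to 136012093, with 10 exons. Its level was 21.1 to 29.9 (median 23.7) in late pregnancy and 13.5 to 16.1 (median 14.8) in lactation, again without overlap. The log2 change was -0.74 ± 0.081 (SE, adjusted p = 1.13e-07, edgeR), a 1.67-fold fall. Only 65.0% of its exon reads were placed uniquely, so that part of its count could belong to a similar sequence elsewhere. Uniquely placed reads alone gave -0.70 (adjusted p = 3.61e-07, edgeR).

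The ratio of CERS2 to CERS5 was 1.91 to 2.65 (median 2.48) in late pregnancy and 4.57 to 5.21 (median 5.01) in lactation. It rose 2.05-fold, without overlap between states (exact permutation test, p = 0.0002; adjusted p = 2.40e-04). On uniquely placed reads alone, the ratio of the levels was 2.97 to 4.15 and 6.75 to 8.16.

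CERS6, a further long-chain ceramide synthase, was close to the limit of detection. It spans 345076 bases of chromosome 2 (139486475 to 139831550) but has only 1272 bases of annotated exon, and its exons held 3 to 12 reads in each late pregnancy library and 0 to 8 in each lactation library. HM lactation 2 had 0 reads, which allows up to 3. Its level was 0.153 to 0.431 (median 0.199) in late pregnancy and 0 to 0.709 (median 0.181) in lactation, so that the states overlapped. Without the filter on low counts the log2 change was 0.12 (adjusted p = 0.85, edgeR). The ratio of CERS6 to CERS5 had a median of 0.00923 in late pregnancy and 0.0117 in lactation, with overlap between states. Neither it nor the ratio of CERS2 to CERS6 was tested over all libraries, because of the library at 0.

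DEGS1, the desaturase that completes ceramide, lies on chromosome 12 from 25462673 to 25472127, with 3 exons. Its level was 40.5 to 46.0 (median 42.3) in late pregnancy and 74.5 to 89.9 (median 84.6) in lactation. Every lactation library exceeded every late pregnancy library by at least 1.62-fold. DEGS1 rose by a log2 change of 0.97 ± 0.048 (SE, adjusted p = 6.14e-13, edgeR), and 87.9% of its reads were placed uniquely. In late pregnancy DEGS1 and SPTLC1 stood at near equal levels, with a ratio of 0.947 to 1.09 (median 1.01), although on uniquely placed reads alone DEGS1 was below SPTLC1 in 9 of 9 late pregnancy libraries (median ratio 0.891). In lactation the ratio was 1.96 to 2.39 (median 2.30), a 2.21-fold rise (exact permutation test, p = 0.0002; adjusted p = 2.40e-04).

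Sphingomyelin synthases transfer the phosphocholine head group onto ceramide. SGMS1, the enzyme of the Golgi, lies on chromosome 22 from 8496547 to 8538526, with 5 exons. Its level was 11.2 to 13.7 (median 12.7) in late pregnancy and 7.36 to 8.74 (median 8.15) in lactation. The states did not overlap, and the log2 change was -0.61 ± 0.064 (SE, adjusted p = 5.44e-08, edgeR), a 1.53-fold fall.

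SGMS2, which acts at the plasma membrane as well as in the Golgi, lies on chromosome 6 from 17414157 to 17435927 with 5 exons. It rested on few reads, 40 to 145 a library before birth and 21 to 46 after. Its level was 1.81 to 3.44 (median 2.16) in late pregnancy and 2.27 to 3.14 (median 2.73) in lactation. Of the late pregnancy libraries 3 lay above the lowest lactation library, and MM late pregnancy 1 was the highest of all 15. The log2 change was 0.23 ± 0.14 (SE, adjusted p = 0.16, edgeR), with an interval of 2 SE from -0.06 to 0.52. Without MM late pregnancy 1 it was 0.33 (adjusted p = 0.017), and on reads over the whole gene 0.35 (adjusted p = 0.034). With upper quartile scaling it was 0.08 (adjusted p = 0.62, edgeR). Of 29 alternative settings, 24 left SGMS2 uncalled, 4 called it higher and 1, library size alone, turned its sign.

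Relative to SGMS1, SGMS2 was higher in lactation. The ratio of SGMS2 to SGMS1 was 0.142 to 0.307 (median 0.183) in late pregnancy and 0.260 to 0.389 (median 0.350) in lactation. Of the 9 late pregnancy libraries, 8 lay below the lactation range, and MM late pregnancy 1 did not. The ratio rose 1.86-fold (exact permutation test, p = 0.0004; adjusted p = 4.00e-04), and SGMS1 stayed the higher of the pair in all 15 libraries.

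UGCG, which makes glucosylceramide and so starts most glycosphingolipids, lies on chromosome 2 from 11560835 to 11599133, with 9 exons. Its level was 6.20 to 8.43 (median 6.32) in late pregnancy and 7.10 to 9.59 (median 7.65) in lactation. The ranges overlapped through the library HM late pregnancy 2, and the other 8 late pregnancy libraries, at 6.20 to 6.75, lay below all lactation libraries. On the log2 scale UGCG rose by 0.28 ± 0.078 (SE, adjusted p = 3.38e-03, edgeR), a call lost with upper quartile scaling.

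SMPD1, the acid sphingomyelinase of the lysosome, had the largest log2 change of the 9 tested genes. It lies on chromosome 15 from 46057287 to 46061247, with 6 exons, and held 95 to 248 reads per late pregnancy library and 92 to 237 per lactation library. Its level was 4.47 to 5.42 (median 5.06) in late pregnancy and 10.2 to 15.0 (median 12.9) in lactation. The lowest lactation library stood 1.88-fold above the highest late pregnancy library. SMPD1 rose 2.56-fold, a log2 change of 1.36 ± 0.083 (SE, adjusted p = 1.73e-11, edgeR).

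Set against the summed sphingomyelin synthases, UGCG and SMPD1 both stood higher in lactation. The ratio of UGCG to SGMS1 and SGMS2 together was 0.406 to 0.536 (median 0.443) in late pregnancy and 0.623 to 0.856 (median 0.723) in lactation. That of SMPD1 to the same sum was 0.291 to 0.406 (median 0.332) and 0.894 to 1.33 (median 1.24). Neither ratio overlapped between states, and the rises were 1.65-fold and 3.49-fold (exact permutation test, p = 0.0002 and adjusted p = 2.40e-04 for each). By RPKM, SMPD1 thus went from below the summed synthases in 9 of 9 late pregnancy libraries to above them in 5 of 6 lactation libraries. This order, too, depends on the annotated exon lengths. Before division by exon length, SMPD1 averaged 22.0 CPM in lactation, below SGMS1 alone at 24.6 CPM.

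**Figure D3:**
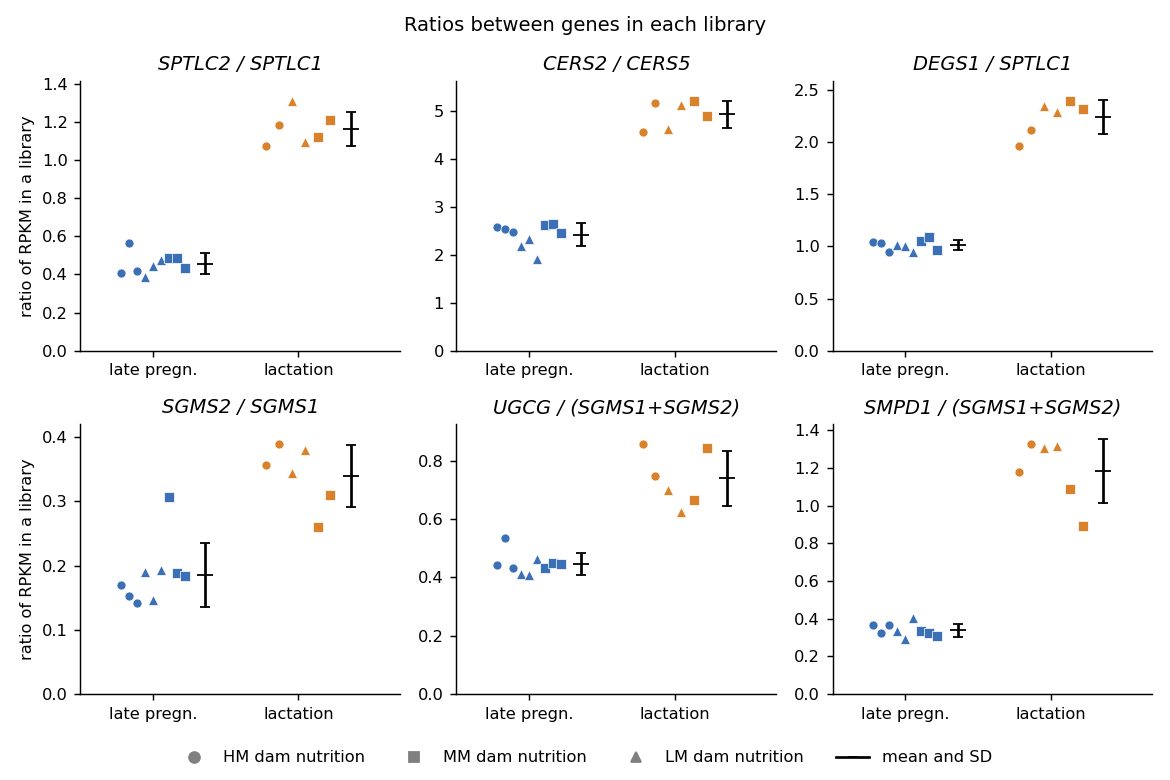
Ratios of RPKM between genes within each library (linear axes from 0), for the 9 late pregnancy (blue) and 6 lactation (orange) libraries, with the mean and SD of each state and dam nutrition by marker shape. All 6 ratios were higher in lactation and do not depend on library scaling. Each has a gene called lower in its denominator and, but for SGMS2, a gene called higher as numerator. Their shared direction thus restates the changes of the single genes. Only SGMS2 over SGMS1 overlaps between states, through 1 late pregnancy library at 0.307. The share of other gene pairs that would separate was not computed.

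The order of the 10 levels changed accordingly. In late pregnancy it ran CERS2, DEGS1, SPTLC1, CERS5, SPTLC2, SGMS1, UGCG, SMPD1, SGMS2 and CERS6. DEGS1 and SPTLC1 could not be ordered, with DEGS1 above in 6 of 9 libraries, whereas CERS5 was above SPTLC2 in 9 of 9 libraries although their ranges overlapped. In lactation the order was DEGS1, CERS2, SPTLC2, SPTLC1, CERS5, SMPD1, SGMS1, UGCG, SGMS2 and CERS6. SGMS1 and UGCG could not be ordered, with SGMS1 above in 3 of 6 libraries. DEGS1 was above CERS2, and CERS5 above SMPD1, in 6 of 6 libraries with overlapping ranges. The order between genes depends on their annotated exon lengths, and part of it rests on reads that were not placed uniquely. On uniquely placed reads alone, CERS5 was above SPTLC2 in 1 of 9 late pregnancy libraries and above SMPD1 in 0 of 6 lactation libraries, and DEGS1 was above CERS2 in 3 of 6. This alternative was chosen after the order had been seen. Of the summed RPKM of the 10 genes, DEGS1 held 20.0% ± 0.904 (SD, n = 9) in late pregnancy and 29.5% ± 1.29 (SD, n = 6) in lactation, and CERS5 held 11.4% ± 1.19 and 5.20% ± 0.375. Over the levels on uniquely placed reads, these shares were 18.8% ± 0.811 and 27.2% ± 0.984 for DEGS1, and 7.88% ± 0.844 and 3.65% ± 0.264 for CERS5.

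Reads that fall on a gene but off its annotated exons (intron reads here) are counted apart from the exon reads. They may come from unspliced RNA, but antisense or other RNA of the locus cannot be told apart from it. Over the 9801 genes tested on both kinds of reads, the median intron share of a gene was 21.4% in late pregnancy and 22.0% in lactation. One library stood apart in its summed intron reads. Intron reads made up 14.4% to 16.1% of all gene reads in late pregnancy libraries, 13.2% in HM lactation 1 and 5.85% to 6.68% in the other 5 lactation libraries. Its counts also differed more from those of the other lactation libraries (chi-square per degree of freedom 17.0 to 23.1) than these did among themselves (5.15 to 11.1). Without it, exon reads still gave 5 members higher and 3 lower. Of 10344 genes tested on intron reads, edgeR called 29.0% higher and 29.0% lower in lactation. Of the 10 genes, 7 had enough intron reads, of which 2 rose and 2 fell. Without HM lactation 1, 4 rose and 2 fell, as SGMS2 (log2 change 1.00, adjusted p = 8.25e-03, edgeR) and SMPD1 (0.67, adjusted p = 0.039) then had enough intron reads and were called. The values that follow were close without it, with DEGS1 at 0.90, CERS5 at -1.08, SPTLC1 at -0.81 and SPTLC2 at 0.26. With all libraries, DEGS1 rose by a log2 change of 0.84 ± 0.12 (SE, adjusted p = 2.99e-06), close to its exon value of 0.97. CERS5 fell by 1.10 (SE 0.16, adjusted p = 2.76e-06), on 31 to 112 intron reads a library before birth and 7 to 18 after it.

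For the subunits of serine palmitoyltransferase the intron and exon reads were further apart. The intron reads of SPTLC1 fell by 0.80 (SE 0.11, adjusted p = 1.17e-06), against an exon change of -0.18. Those of SPTLC2 rose by 0.27 ± 0.089 (SE, adjusted p = 0.012), against an exon change of 1.17. Intron reads made up 18.8% to 24.3% of the reads on SPTLC2 in late pregnancy and 10.4% to 15.3% in lactation, and SPTLC2 was the single member whose share did not overlap between states. Over the 9801 genes tested on both kinds of reads, the share lay wholly lower in lactation for 4.02% and wholly higher for 6.24%.

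The other 3 tested genes did not pass on intron reads. SGMS1 was at 0.06 ± 0.24 (SE, adjusted p = 0.86), UGCG at 0.31 ± 0.21 (SE, adjusted p = 0.20) and CERS6 at 0.17 ± 0.18 (SE, adjusted p = 0.44). Most reads on the CERS6 locus were intronic, at 72.7% to 93.2% in late pregnancy and 77.1% to 100% in lactation. With all libraries, CERS2, SGMS2 and SMPD1 had too few intron reads and were not tested. The difference between the exon and the intron change was not itself tested for any gene.

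Reads that cross exon-exon junctions come from spliced RNA alone, and were examined after the other values had been seen. On these, SPTLC2 was at 1.17, DEGS1 at 0.89, SMPD1 at 1.41, CERS2 at 0.42, CERS5 at -0.73 and SGMS1 at -0.59, all called by edgeR. SPTLC1 was at -0.11 (adjusted p = 0.069) and no longer called. UGCG was at 0.65 ± 0.13 (SE, adjusted p = 1.70e-04), more than on all exon reads. As a share of its exon reads, its junction reads came to 13.3% to 21.2% before birth and to 20.2% to 28.8% in lactation.

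**Figure D4:**
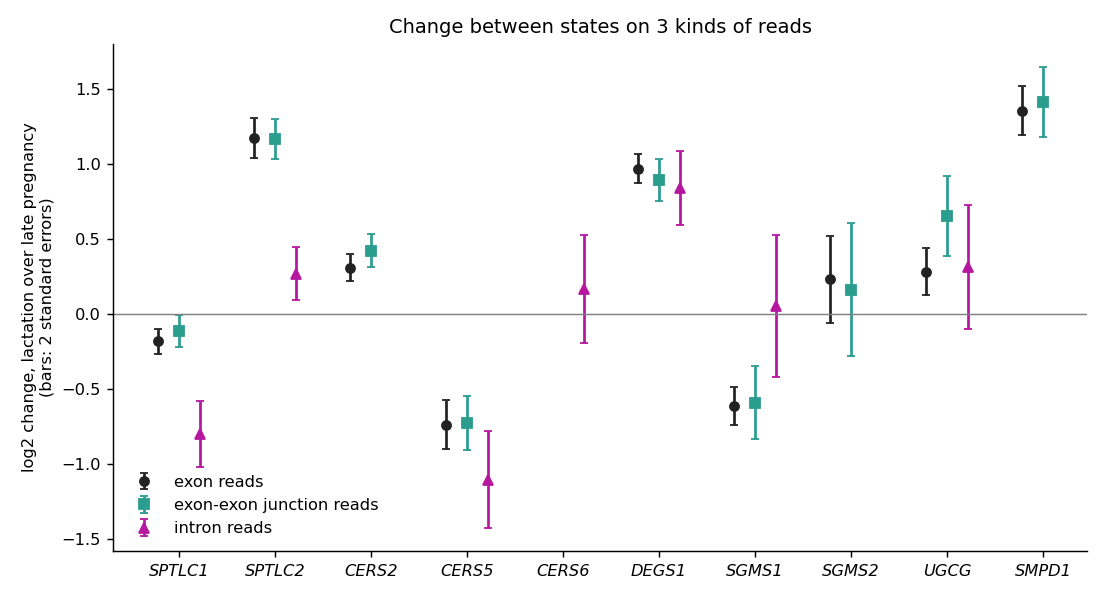
Log2 change between states (lactation over late pregnancy, TMM-scaled) of each gene on exon reads, exon-exon junction reads and intron reads, with bars of 2 standard errors; genes with too few reads of a kind have no point. Exon and junction reads lie close for SPTLC2, DEGS1 and SMPD1, while the intron point of SPTLC2 (0.27) lies below its exon point (1.17) and that of SPTLC1 (-0.80) below its exon point (-0.18); under library size alone the SPTLC2 points turn to -0.74 on exon and -0.35 on intron reads.

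A further 70 genes of sphingolipid metabolism were placed in 7 roles, and 68 of them were matched to a row of the table. Of these, 54 were tested, of which 16 rose, 22 fell and 16 did not pass, with a median log2 change of -0.09. As above, 33.1% and 35.2% of all tested genes rose and fell. For each role, the called genes with the largest rise and fall are given, and any other gene named was chosen after its values were seen. Under library size alone only SPTLC3 and ELOVL1 were called higher of the 54 and 50 were called lower.

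Of the 6 tested genes of serine palmitoyltransferase, its regulators and the next step, 3 rose and 2 fell, among them the largest changes of the list. SPTLC3, which can take the place of SPTLC2 and accepts other acyl-CoAs, had a level of 3.78 to 6.56 (median 5.40) in late pregnancy and 22.7 to 32.7 (median 29.8) in lactation. It rose by a log2 change of 2.47 ± 0.11 (SE, adjusted p = 1.56e-13, edgeR), and was at 0.55 with library size alone. Together, SPTLC2 and SPTLC3 came to 0.472 to 0.724 of the RPKM of SPTLC1 in late pregnancy and to 1.67 to 2.13 in lactation.

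SPTSSB, a small subunit that raises the activity of the enzyme and alters its choice of acyl-CoA, was nearly lost in lactation. It held 144 to 542 reads in every late pregnancy library, and 0 reads in 1 lactation library and 1 or 2 in each of the other 5. Its level was 5.79 to 11.6 (median 9.95) in late pregnancy and 0 to 0.126 (median 0.0981) in lactation. From the summed reads, 3120 against 7, its level was 102-fold lower in lactation (95% exact interval 49.3 to 253, counting error only; adjusted p = 4.27e-13, edgeR). SPTSSA, another small subunit on the list, was not matched to a row. Its level is therefore unknown, and SPTSSB does not stand for all small subunits. The ORMDL proteins, inhibitors of the enzyme, were mixed. ORMDL3 rose by 0.57 ± 0.059 (SE, adjusted p = 4.91e-08) and ORMDL2 by 0.22 ± 0.046 (SE, adjusted p = 3.28e-04), and ORMDL1 fell by 0.30 (SE 0.069, adjusted p = 7.99e-04). KDSR, the reductase of the next step, did not pass the test, at a mean level of 20.6 in late pregnancy and 21.5 in lactation.

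The other ceramide synthases and hydroxylases were low. CERS4 stood at a level of 2.40 (median) in late pregnancy and 3.00 in lactation and did not pass the test (log2 change 0.26 ± 0.19 SE, adjusted p = 0.23, edgeR), nor did CERS1. CERS3, DEGS2 and FA2H had too few reads to be tested.

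Fatty acyl elongation supplies the longer acyl-CoAs. Of 8 genes tested 4 rose and 3 fell. ELOVL6, which lengthens palmitate, rose most (log2 change 2.45 ± 0.27 SE, adjusted p = 1.04e-07, edgeR), from a level of 3.77 to 16.0 in late pregnancy to 27.2 to 93.4 in lactation. Its libraries were widely spread in lactation, and with library size alone it was at 0.53 (adjusted p = 0.052, edgeR). ELOVL1, which makes very long chains, rose by 2.10 ± 0.072 (SE, adjusted p = 2.76e-15), from 12.7 to 18.0 up to 56.9 to 73.7. HACD3, a dehydratase of the elongation cycle listed by its older symbol PTPLAD1, fell most, by 1.25 (SE 0.16, adjusted p = 8.62e-07). It held 14 to 35 reads per lactation library.

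Of 6 genes of sphingomyelin synthesis, transfer and cleavage, 3 rose and 2 fell. CERT1 (COL4A3BP in the table), which carries ceramide from the endoplasmic reticulum to the Golgi, had a level of 2.66 to 3.89 in late pregnancy and 5.03 to 8.12 in lactation. It rose by a log2 change of 0.91 ± 0.11 (SE, adjusted p = 3.33e-07, edgeR), without overlap. SMPDL3A, a relative of the acid sphingomyelinase, fell by 1.04 (SE 0.27, adjusted p = 2.13e-03) on 1 to 10 reads in lactation.

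Of 7 tested genes of glycosphingolipid synthesis beyond UGCG, 5 were called lower and 1 higher, beside 35.2% and 33.1% of all tested genes. Of the 5 lower genes, UGT8, A4GALT, B4GALT5 and ST3GAL5 held at most 3, 5, 10 and 13 reads in any lactation library and overlapped between states. The other was ST8SIA1, which makes the ganglioside GD3 and was picked out after its values were seen. Its level was 7.87 to 9.83 in late pregnancy and 1.55 to 3.37 in lactation, a log2 change of -1.85 ± 0.11 (SE, adjusted p = 1.59e-11, edgeR). B4GALNT1, which builds gangliosides, was the gene that rose (log2 change 1.01 ± 0.26 SE, adjusted p = 1.88e-03, edgeR), with 4 to 14 reads in lactation and overlapping states. UGT8, which makes galactosylceramide, had the largest fall by its log2 estimate of -1.98 ± 0.65 (SE), which was -1.66 without LM late pregnancy 1. It rested on 148 summed reads in late pregnancy and 8 in lactation, 4.22-fold lower (95% exact interval 2.09 to 9.97, counting error only; adjusted p = 0.011, edgeR). With limma on quantile-normalized RPKM it did not pass at a pseudocount of 1 (-0.12, adjusted p = 0.087) and passed at 0.1 (-0.58, adjusted p = 0.035). UGT8 and B4GALNT1 were low, at median levels under 1 in either state.

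Of 14 genes of lysosomal and other breakdown, 3 rose and 5 fell. ARSA, the sulfatase of sulfatide, rose by a log2 change of 0.71 ± 0.11 (SE, adjusted p = 1.19e-05, edgeR). ASAH2, a neutral ceramidase, fell most, from 472 summed reads to 16, which is 6.74-fold lower (95% exact interval 4.10 to 11.9, counting error only; adjusted p = 3.16e-06, edgeR). ASAH1, the acid ceramidase that acts beyond SMPD1 in the lysosome, fell by 0.61 (SE 0.058, adjusted p = 1.35e-08), from a level of 17.1 to 21.2 in late pregnancy to 11.7 to 13.1 in lactation. Of the 5 macrophage markers 3 fell in the same libraries, and their part in the changes of lysosomal genes, SMPD1 included, was not tested.

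In sphingosine 1-phosphate metabolism and its receptors, 2 of 11 tested genes rose and 5 fell. SGPP1, a phosphatase of sphingosine 1-phosphate, rose by a log2 change of 0.56 ± 0.067 (SE, adjusted p = 4.33e-07, edgeR). The kinases SPHK1 and SPHK2, which make it, fell by 1.51 (SE 0.19, adjusted p = 6.09e-07) and by 0.68 (SE 0.10, adjusted p = 8.19e-06). SPHK1 held 8 to 33 reads per lactation library. S1PR4, a receptor of lymphocytes, fell most, from 206 summed reads to 10 (4.70-fold lower, 95% exact interval 2.51 to 9.96, counting error only; adjusted p = 1.93e-05, edgeR). All 4 T cell markers fell in the same libraries, and their part in the fall of S1PR4 was not tested.

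**Figure D5:**
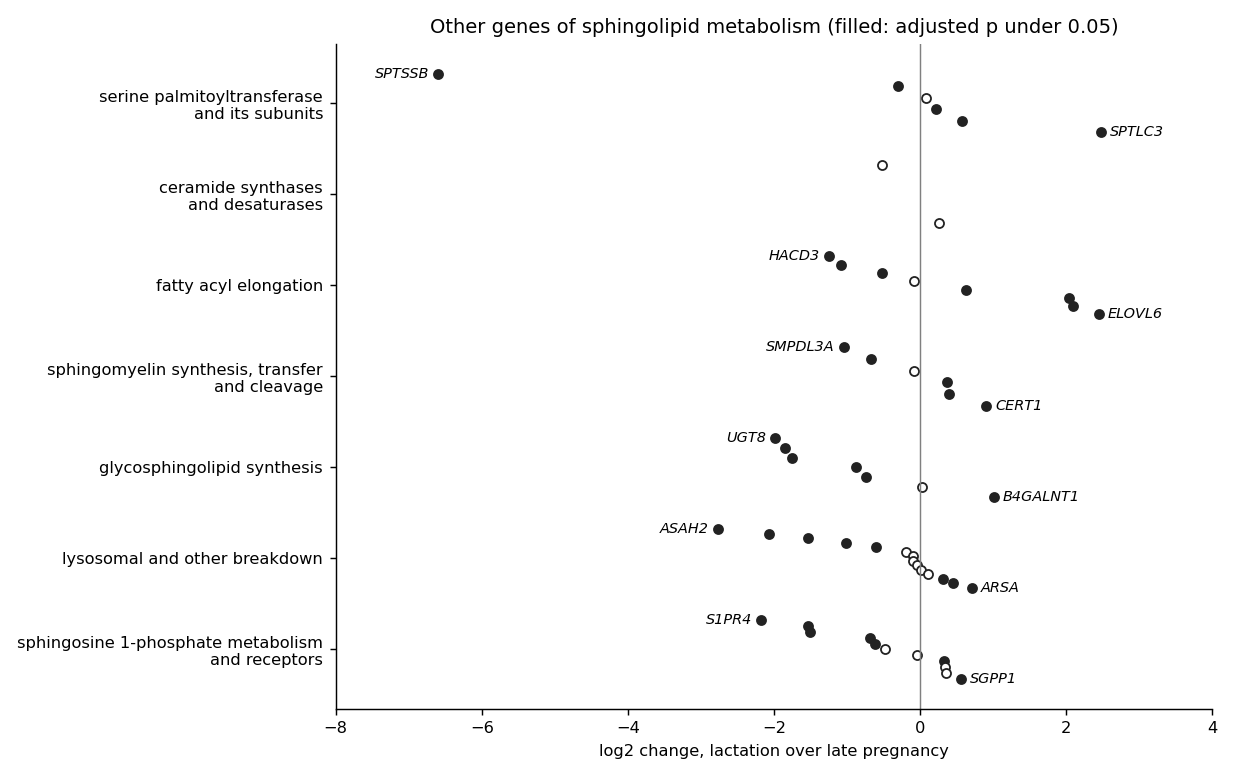
Log2 change between states (lactation over late pregnancy, TMM-scaled) of the 54 tested pathway genes in 7 roles. Filled points passed the test, and the called genes with the largest rise and fall of a role are named. SPTSSB lies far to the left and SPTLC3 and ELOVL6 farthest to the right; with library size alone all points shift lower, and only SPTLC3 and ELOVL1 stay called higher.

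The feeding of the ewes' dams was compared over the 9 late pregnancy libraries, 3 a group. No member was called, nor was any of the 13747 genes tested (0.0%, edgeR), while 571 genes had an unadjusted p under 0.05 and a likelihood ratio test of DESeq2 called 20 genes, none of them a member. The lowest p among the members was that of CERS5. Its level was 21.1 to 22.5 in MM, 23.0 to 24.6 in HM and 25.7 to 29.9 in LM, so that the 3 groups did not overlap. Its p adjusted over all genes was 0.77 (edgeR). The share of all tested genes whose 3 groups did not overlap was not computed. All 3 LM libraries carry lane 8 in their names, as do 1 HM library (CERS5 level 23.0) and 1 MM library (22.5), although each library was run on 2 lanes. The part of lane in the order of the groups was not tested. Each of the other members overlapped between at least 1 pair of groups.

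The change between states was then compared between the dam nutrition groups. The interaction was called for 0.0% of 13345 genes by edgeR, with 876 at an unadjusted p under 0.05, while DESeq2 called 19. None was a member, and the lowest adjusted p of a member was 0.80, for SGMS1.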

How the data were processed

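The authors mapped paired-end reads to the sheep genome in CLC Genomics Workbench (Oar_v3.1 in the submitters' processing notes, a later version in the paper's methods) and deposited 1 table of 24691 features with counts of exon, whole-gene, uniquely placed and junction reads per library, not normalized. The deposited RPKM values were computed by the authors from these reads, and a quantile-normalized RPKM was derived from them. Deposited columns of the authors' own comparisons were not used. Coordinates are as in the table, and no sequence is shown.

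The test was run in edgeR 4.0.16 (R 4.3.3) on exon reads, or whole-gene reads for the 5583 features without an annotated transcript, with TMM scaling, filterByExpr by state and a quasi-likelihood F-test over 9 late pregnancy and 6 lactation libraries, and adjusted p under 0.05. Intron reads are whole-gene less exon reads. Alternatives used DESeq2 1.42.0 and limma 3.58.1 (pseudocount 1, or 0.1). Tests were checked on simulated counts built from late pregnancy proportions in both states, with few changed genes. The check thus did not cover the shift in milk protein reads between states. P-values measure the spread between pools, and reads carry no molecular identifiers, so counting intervals cover counting error only. Strand was not used as far as stated, so antisense reads cannot be told apart. Named genes are the 10 members and, per role of the pathway list, the called genes with the largest rise and fall; other pathway genes were named after their values were seen. The members and lists were chosen with earlier results of these data known.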

Additional observations from a re-analysis of the deposited data

Results flagged for a closer look

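In 35 sets of libraries, a set being 1 state for 1 gene or ratio, 5 held a library set apart from the rest by Dixon's criterion at the 95% level, which chance alone meets in about 1 set in 20. All 5 were in late pregnancy. MM late pregnancy 1 had an SGMS2 level of 3.44, where the other 8 libraries had 1.81 to 2.51, and an SGMS2 to SGMS1 ratio of 0.307, against 0.142 to 0.193. HM late pregnancy 2, the library with the fewest reads, had a UGCG level of 8.43, against 6.20 to 6.75 in the others, and a ratio of UGCG to the summed sphingomyelin synthases of 0.536, against 0.406 to 0.464. Its CERS6 to CERS5 ratio was 0.0182, against 0.00678 to 0.0124, on 6 CERS6 reads.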

How the results depend on the processing

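The scaling of libraries and the number of reads limit these results. Of the members, SGMS2 and CERS6 rest on 46 reads or fewer per lactation library. Of the other named genes, so do SPTSSB, HACD3, SMPDL3A, UGT8, A4GALT, B4GALT5, ST3GAL5, B4GALNT1, ASAH2, SPHK1, S1PR4, FA2H, CERS1, CERS3 and DEGS2. With library size alone 0 members were called higher and 9 lower, with SPTLC2 at -0.74, CERS2 at -1.60, DEGS1 at -0.94, SGMS2 at -1.67, UGCG at -1.63 and SMPD1 at -0.55. Of the pathway list 2 were then higher and 50 lower, with ARSA at -1.19, B4GALNT1 at -0.88, CERT1 at -1.01 and SGPP1 at -1.35. On intron reads 0 members were higher and 4 lower, with SPTLC2 at -0.35, CERS6 at -0.45, SGMS1 at -0.57 and UGCG at -0.32, while DEGS1 (0.25, adjusted p = 0.20, edgeR) lost its call. The median of all genes moved with this scaling. With at least 10 reads in every library, 14 pathway genes were called lower, as fewer genes were tested. DESeq2, unique reads, dam nutrition or the lane in the library name as covariate, and milk protein genes left out of the scaling changed no call of a member. As each library was run on 2 lanes, the lane in the name does not adjust for lane in full.

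Leaving out 1 library at a time gave 5 to 6 members higher and 3 lower, and 2 to 4 members higher on intron reads. The 4 came without HM lactation 1. SGMS2 was tested on intron reads in 3 of these settings and called in each (1.00 to 1.20). SMPD1 was tested in 7, called without HM lactation 1 or HM lactation 2 (0.67 each, adjusted p = 0.039 and 0.040, edgeR) and not called in the other 5 (0.42 to 0.57, adjusted p 0.086 to 0.24). The intron change of SGMS1 ran from -0.029 (without HM lactation 1) to 0.22. The 6 ratios tested over all libraries remained higher in lactation, with the largest adjusted p at 2.00e-03 (exact permutation test). The number of ratios called ran from 6 to 7. The count of 7 includes a ratio with CERS6, which has a value in every library only without HM lactation 2 and rests on few reads. With dam nutrition and pool number as a replicate block, 8464 genes were called in place of 9122, SPTLC1 was at -0.17 (adjusted p = 0.025, edgeR) and UGCG at 0.26 (adjusted p = 0.022), and no member lost its call. Libraries of the same dam nutrition group and number in both states did not deviate together (correlations from -0.05 to 0.12). Of 6 pairs, 1 correlated best with its own number. Pools may still share ewes between states, which these correlations cannot exclude.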

Other observations

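FA2H, the hydroxylase that makes hydroxylated sphingolipids, did not pass the filter on low counts and was looked at after its values were seen. It held 0 to 6 reads in late pregnancy libraries and 3 to 10 in lactation libraries, 19 and 37 in all, which is 8.53-fold higher in lactation after TMM scaling (95% exact interval 4.78 to 15.7, counting error only). The level of ELOVL1 relative to CERS2, the elongase and the ceramide synthase of very long chains, was 0.212 to 0.315 (RPKM ratio) in late pregnancy and 0.768 to 1.03 in lactation. ORMDL3 relative to SPTLC1 was 1.60 to 1.87 and 2.39 to 3.23. No test was made of these ratios.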
